A study of Mus musculus with 12 samples.

Results

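The aryl hydrocarbon receptor genes examined here are 7 of the 20325 genes measured, namely the receptor gene Ahr, its partner Arnt, its repressor Ahrr and the standard targets Cyp1a1, Cyp1b1, Tiparp and Aldh3a1. They were taken by gene symbol, and all 7 symbols were found. The set was selected on earlier results from these same libraries, including the expression values of every condition and the interaction of AA with 2i. The members' own differences are therefore given as a description, and no test is read from them. Of the 7 genes, 6 had at least 10 counts in at least 3 libraries, as had 13400 genes in all, and only Ahrr did not.

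The cells were mouse pre-iPSCs, which come as clonal lines stalled late in reprogramming, and the labels name a single partially reprogrammed line. They were maintained on irradiated feeders and then treated for 48 h without the feeder layer. The treatments were DMSO as the control, ascorbic acid (AA) at 50 μg/ml, 2i, which combined a MEK inhibitor (PD0325901) at 1 μM with a GSK inhibitor (CHIR99021) at 3 μM, or AA and 2i together (AA+2i). Each condition had 3 biological replicates, to which the letters A, B and C refer, and the expected counts of the 12 RNA-seq libraries summed to 16173322 to 54392719.

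AHR is a transcription factor of the bHLH-PAS family that waits in the cytoplasm, bound to HSP90, until a ligand such as dioxin or a product of tryptophan breakdown binds it. It then enters the nucleus, pairs with ARNT and binds response elements in DNA whose core is GCGTG, at genes of foreign-compound metabolism such as Cyp1a1 and Cyp1b1. AHRR and TIPARP are known as feedback inhibitors of the receptor.

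Cyp1a1, Cyp1b1 and Tiparp are all regarded as AHR targets, yet the first pair was higher in every library with 2i than in any without it and Tiparp was not, so the 250 bases before the start site of each are shown. The sequences are from RefSeq on build GRCm38.p6, 5′ to 3′ on the strand of the gene, with GCGTG on either strand in capitals (it reads CACGC when it lies on the opposite strand). Cyp1a1 is on the plus strand (chr9:57697363-57697612), Cyp1b1 on the minus strand (chr17:79715062-79715311) and Tiparp on the plus strand (chr3:65528197-65528446).
Cyp1a1: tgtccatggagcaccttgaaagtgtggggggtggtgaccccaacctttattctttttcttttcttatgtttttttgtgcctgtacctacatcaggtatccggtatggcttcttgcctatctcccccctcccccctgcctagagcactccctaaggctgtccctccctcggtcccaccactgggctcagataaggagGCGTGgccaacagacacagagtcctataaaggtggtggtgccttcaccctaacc
Cyp1b1: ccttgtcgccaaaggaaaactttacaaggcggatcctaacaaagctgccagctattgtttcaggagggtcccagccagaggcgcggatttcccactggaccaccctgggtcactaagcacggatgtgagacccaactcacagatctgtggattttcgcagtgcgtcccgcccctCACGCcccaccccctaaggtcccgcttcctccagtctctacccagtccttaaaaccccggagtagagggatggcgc
Tiparp: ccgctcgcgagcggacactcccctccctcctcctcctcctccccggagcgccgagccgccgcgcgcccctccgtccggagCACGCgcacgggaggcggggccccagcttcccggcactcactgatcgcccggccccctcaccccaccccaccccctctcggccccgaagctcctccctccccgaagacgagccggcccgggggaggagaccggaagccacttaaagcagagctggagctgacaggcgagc
Each of the 3 windows held 1 match to GCGTG. In Cyp1a1 it covered the bases from -54 to -50 relative to the start site, in Cyp1b1 those from -76 to -72 on the opposite strand, and in Tiparp those from -170 to -166, also on the opposite strand. A match stood in 28.2% of the 32851 windows of the same length in the whole table. The longer form TNGCGTG, which contains the core, was found in 4.10% of all windows and in none of these 3. Among the other members in the table, the Arnt window held 1 core match and that of Ahrr 3, of which 1 had the longer form. Ahr and Aldh3a1 were not matched. These are matches of letters in a short window. The response elements best known for Cyp1a1 lie further upstream than the stretch printed.

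Ahr (mm9, chr12:36182646-36219710, minus strand) encodes the receptor. Its level was 1.83, 1.35 and 1.69 TPM (a level scaled for gene length and library size, so that genes can be compared) in DMSO A, B and C. It was 1.00, 0.66 and 0.90 TPM with AA, and 3.10, 2.34 and 3.64 TPM with 2i. With AA+2i it was 4.30, 4.19 and 4.76 TPM. Every AA library lay below every DMSO library, every 2i library above every DMSO library, and every AA+2i library above every 2i library, so no neighbours in this order overlapped. The mean TPM was 0.853 ± 0.175 for AA, 1.62 ± 0.247 for DMSO, 3.03 ± 0.653 for 2i and 4.42 ± 0.302 for AA+2i (SD, n = 3), from 53.2 to 355 counts per library. The level of AA+2i was thus 2.72 times that of DMSO and 5.18 times that of AA. In bulk RNA, fewer cells that express a gene and less of its RNA per cell cannot be told apart.

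The direction of the difference with AA was not the same without and with 2i. On the log2(TPM + 1) scale, AA less DMSO was -0.50 in each of the replicate letters A, B and C. AA+2i less 2i was 0.37, 0.64 and 0.31. The difference between these differences was 0.87, 1.14 and 0.81, with a mean of 0.94 ± 0.17 (SD, n = 3), and on a pseudocount of 0.1 TPM instead of 1 it was 1.41 ± 0.29. If the differences of AA and of 2i from DMSO had added up in TPM, the mean with AA+2i would have been 2.26, and if their ratios had multiplied, 1.59, whereas 4.42 was measured. The edgeR quasi-likelihood fit of the counts gave an interaction of 1.49 ± 0.40 (SE) on the log2 scale, ranked 42 of 13400 genes by p, with a Benjamini-Hochberg adjusted p = 1.00. The interaction was one of the values on which Ahr was selected, and 0.0149% of the tested genes were called for it.

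**Figure D1:**
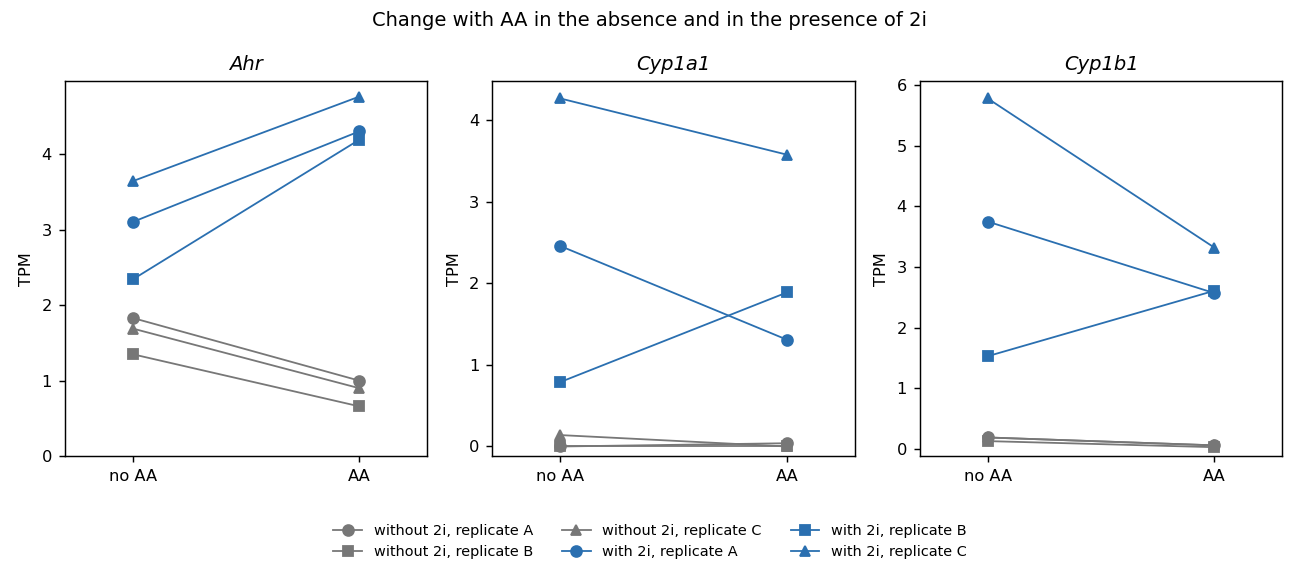
TPM of Ahr, Cyp1a1 and Cyp1b1 without and with AA. Each line joins the libraries of one replicate letter (circles A, squares B, triangles C), in grey without 2i and in blue with 2i, although the labels do not say that the letters mark pairs. All 3 grey lines of Ahr go down and all 3 blue lines go up, while the blue lines of Cyp1a1 and Cyp1b1 go down in A and C and up in B.

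Arnt (mm9, chr3:95238310-95301162, plus strand) encodes the partner that AHR needs for DNA binding, which also pairs with the hypoxia factors. It was measured at 156, 106 and 82.6 TPM with DMSO and 147, 101 and 69.3 TPM with AA. With 2i it was 118, 89.0 and 63.4 TPM, and with AA+2i 97.4, 92.4 and 48.2 TPM. The 4 groups overlapped throughout, and within every group A was highest and C lowest. Per length, Arnt was above Ahr in each library. The fitted log2 differences from DMSO were -0.19 ± 0.33 (SE) with 2i and -0.37 ± 0.33 with AA+2i.

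Ahrr (mm9, chr13:74348566-74429779, minus strand), which encodes a repressor that competes with AHR for ARNT and is itself a classic AHR target, was at the limit of detection. It had 0 to 3 counts per library and at most 0.04 TPM. Its counts came to 4 over the DMSO libraries, 4 over AA, 2 over 2i and 5 over AA+2i. A difference between conditions was not detectable at this depth, and a library with no count still allows up to 3.

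Cyp1a1 (mm9, chr9:57545420-57551629, plus strand) encodes a cytochrome P450 that oxidises polycyclic aromatic compounds and is the usual readout of AHR activity. It had 0, 0 and 3 counts in DMSO A, B and C and 1, 0 and 0 counts with AA. With 2i it had 67, 26 and 109 counts, which is 2.46, 0.79 and 4.27 TPM. With AA+2i it had 35, 62 and 126 counts, which is 1.31, 1.89 and 3.58 TPM. Cyp1a1 was thus at or near 0 in the 6 libraries without 2i and present in the 6 with it, and the 2i and AA+2i libraries overlapped. Scaled to the summed counts of the libraries, 2i had 92.5 times the counts of DMSO (95% interval 31.2 to 452) and AA+2i had 96.5 times (32.6 to 471). Against AA, with 1 count in 3 libraries, the ratio for AA+2i was 343, with an interval of 61.0 to 1.36e+04. These intervals cover counting error only, and the spread between replicates comes on top of it, since the lowest of the 2i libraries had 26 counts and the highest 109.

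Cyp1b1 (mm9, chr17:80106234-80114401, minus strand) encodes a related P450 that acts on oestrogens and polycyclic compounds. It was at 0.19, 0.13 and 0.19 TPM with DMSO and at 0.06, 0.03 and 0.06 TPM with AA. With 2i it was at 3.75, 1.53 and 5.78 TPM, and with AA+2i at 2.57, 2.61 and 3.32 TPM. Every library with 2i lay above every library without it, and the AA libraries lay below those of DMSO, although the groups without 2i rested on only 12 counts in all for AA and 31 for DMSO. The counts, scaled in the same way, were 26.3 times those of DMSO with 2i (interval 18.3 to 39.0) and 22.4 times with AA+2i (15.6 to 33.3). Against AA the ratio for AA+2i was 68.6 (38.9 to 134).

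The 2i library B had the lowest value of its group for Ahr, Cyp1a1 and Cyp1b1 alike. The 2i group was also the most spread for both P450 genes, with 2.51 ± 1.74 TPM for Cyp1a1 and 3.69 ± 2.13 TPM for Cyp1b1 (SD, n = 3), against 2.26 ± 1.18 and 2.83 ± 0.422 TPM with AA+2i. The higher mean of Ahr with AA+2i than with 2i therefore stood beside P450 levels that overlapped between these groups, with fitted log2 differences of AA+2i from 2i of -0.09 ± 0.77 (SE) for Cyp1a1 and -0.36 ± 0.44 for Cyp1b1.

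Tiparp (mm9, chr3:65332332-65359067, plus strand) encodes a mono-ADP-ribosyltransferase that modifies AHR and promotes its breakdown. It was at 239, 129 and 113 TPM with DMSO and 209, 97.7 and 79.2 TPM with AA. With 2i it was at 118, 85.4 and 60.1 TPM, and with AA+2i at 75.0, 92.1 and 42.0 TPM. Every AA+2i library lay below every DMSO library, while 2i and DMSO overlapped and the difference between them did not pass the test. Tiparp was also the member with the lowest GC content, 41.1% of its transcript, and the libraries differed in how counts depended on GC content. At its GC content the smoothed deviation of a library from the mean of all libraries, on the log2 scale, ran from 0.82 in DMSO A to -0.55 in AA+2i C. Taking out that curve changed the fitted log2 difference of AA+2i from DMSO from -1.05 ± 0.41 (SE) to -0.49, and that of 2i from -0.72 to -0.32. The difference with AA+2i was smaller with the curve taken out, but it was then called by edgeR's quasi-likelihood test with Benjamini-Hochberg adjustment (adjusted p = 0.0246, against 0.150 without the correction), while that with 2i was not called either way (0.156 and 0.434). Tiparp was selected with the values of these libraries known, so these calls are a description and no test is read from them.

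Aldh3a1 (mm9, chr11:61021039-61031923, plus strand), an aldehyde dehydrogenase gene that AHR ligands induce in liver and other tissues, did not go with the P450 genes. It was at 15.3, 58.3 and 30.6 TPM with DMSO and 19.9, 38.5 and 38.7 TPM with AA. With 2i it was at 19.3, 23.0 and 17.5 TPM, and with AA+2i at 24.4, 25.5 and 20.9 TPM. The groups overlapped, and the DMSO libraries alone spanned the range of all 12. The fitted log2 differences from DMSO were -0.58 ± 0.39 (SE) with 2i and -0.31 ± 0.38 with AA+2i.

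**Figure D2:**
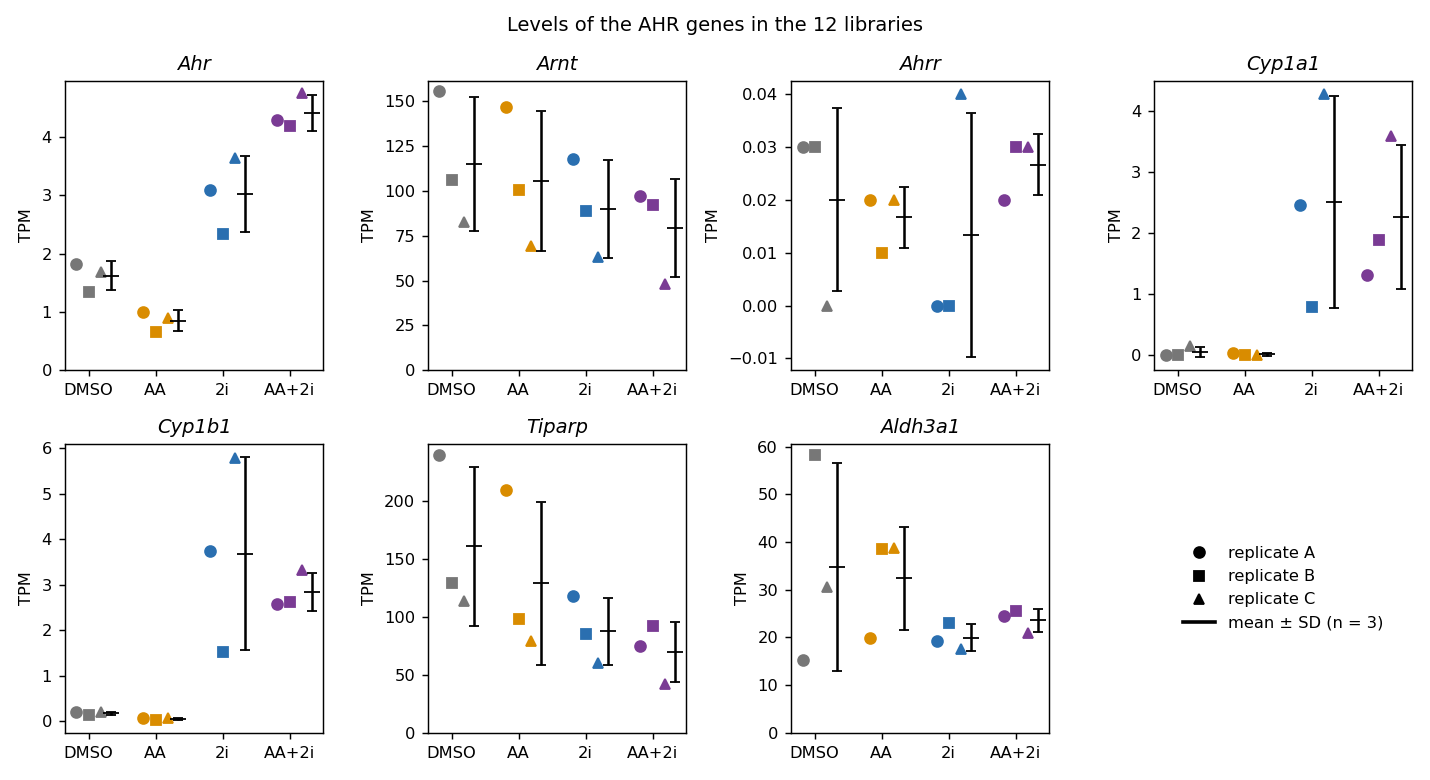
TPM of the 7 genes in the 12 libraries, one panel per gene with its own linear axis; circles, squares and triangles are replicates A, B and C, and the black bar is the mean ± SD (n = 3). Ahr climbs from AA through DMSO and 2i to AA+2i without overlap, Cyp1a1 and Cyp1b1 are near 0 without 2i, and for Arnt the circle of A is the highest and the triangle of C the lowest in each group.

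Counted over the 6 tested members, edgeR's quasi-likelihood test with Benjamini-Hochberg adjustment called 2 with 2i against DMSO, Cyp1a1 and Cyp1b1, both higher, where 4.42% of all tested genes were called. Ahr was just short of the threshold there (edgeR, adjusted p = 0.0601) and was called by DESeq2 (0.0066) and by edgeR with the GC curves taken out (0.0163). With AA+2i it called 3 against DMSO, Ahr besides these, where 8.34% of all tested genes were called, and the same 3 against AA, where 6.10% were. No member was called with AA against DMSO, where 1.34% of genes were called, although 2 had an unadjusted p under 0.05, and DESeq2 and limma called none. None was called with AA+2i against 2i, where 0.910% of genes were, nor had any an unadjusted p under 0.05 there, and for the interaction 1, Ahr, had an unadjusted p under 0.05. Neither DESeq2 nor limma called a member in these 2 comparisons. Cyp1a1 reached 10 counts in 6 libraries, all with 2i, and Cyp1b1 in 7, those and DMSO B. Both thus entered the test only through the libraries where they were high. Because the members were selected on these contrasts as well, the counts describe the selection. Comparisons against DMSO share the DMSO libraries, and those of AA+2i share the AA+2i libraries.

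These calls rested on replicate B, which includes the deepest libraries (DMSO B and AA B), more than on the other letters. Without it 7 of the 8 calls were lost, and Cyp1b1 with AA+2i against AA was the one kept. The log2 difference of Cyp1b1 with 2i was 4.68 ± 0.54 (SE) with all libraries and 4.77 without B, and that of Cyp1a1 6.32 ± 1.17 and 5.63. For Ahr with AA+2i against DMSO it was 1.65 ± 0.29 and 1.54, and with the GC curve of each library taken out 1.96. Without replicate C, 3 of the 8 calls were lost, and without A or without DMSO B alone, 1, each time including Cyp1a1 with 2i. Over all genes the fit without replicate B called 1 gene with 2i, where the fit of all libraries called 592.

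Whether groups overlapped was counted too. With AA+2i against DMSO, 4 of the 6 tested members did not overlap (Ahr, Cyp1a1, Cyp1b1 and Tiparp), as did 32.1% of all tested genes. With 2i against DMSO it was 3, Ahr and the P450 genes, where 19.9% of genes did not overlap, and the same 3 with AA+2i against AA, where 24.5% did not. With AA against DMSO it was 2, Ahr and Cyp1b1, beside 9.49%, and with AA+2i against 2i it was Ahr alone, beside 16.1%. Here too, Cyp1a1 and Cyp1b1 were among the tested genes only through their libraries with 2i.

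**Figure D3:**
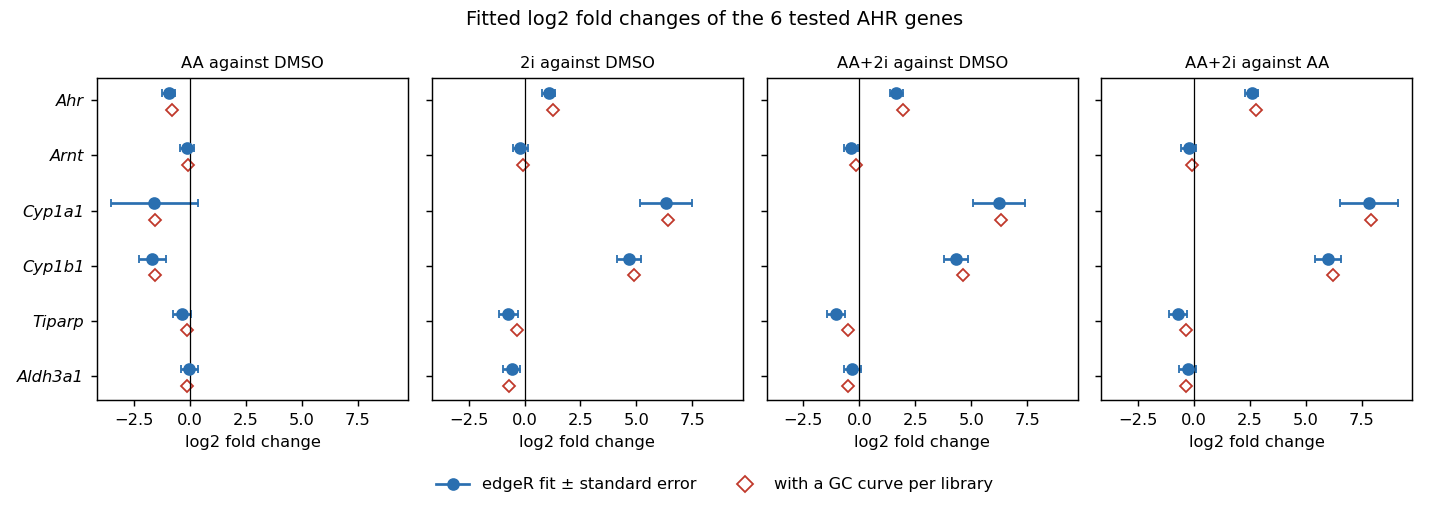
Fitted log2 fold changes of the 6 tested genes in 4 comparisons. Blue points are the edgeR fit with bars of 1 standard error, and open red diamonds are the same fit with a GC curve per library. Cyp1a1, Cyp1b1 and Ahr lie above 0 wherever 2i was added, and the diamonds of Tiparp lie nearer to 0 than its points, at -0.49 instead of -1.05 with AA+2i against DMSO.

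Across the 12 libraries, on log2(TPM + 1), Ahr ran with Cyp1b1 (Pearson's r = 0.902, Spearman's rho = 0.884) and with Cyp1a1 (0.881 and 0.836), and Cyp1a1 with Cyp1b1 (0.980 and 0.922). Arnt ran with Tiparp (0.932 and 0.874). These values describe 12 points that share 4 conditions and the same libraries, so they mostly restate the differences between conditions and letters. The TPM were also left uncorrected for GC content. The GC curve was highest in DMSO A and lowest in AA+2i C for both Arnt (0.29 and -0.22) and Tiparp (0.82 and -0.55). The part of GC content in these correlations and in the likenesses below was not tested. Among the 11743 genes with a mean of at least 1 TPM, the patterns most like that of Ahr by Pearson's r were those of Ppap2b (0.968), S1pr1 (0.962) and Ccrl1 (0.962). S1pr1, a receptor for sphingosine 1-phosphate, was at 0.163 ± 0.0924 TPM with AA, 0.450 ± 0.118 for DMSO, 4.63 ± 1.78 for 2i and 8.04 ± 1.85 for AA+2i (SD, n = 3), the same order as Ahr. For Cyp1a1 they were Tspan18 (0.963), Tnfrsf19 (0.958) and Gjb2 (0.958), and for Cyp1b1 Tnfrsf19 (0.979), Rhbdl3 (0.966) and Tspan18 (0.957). Tiparp was matched most closely by Gtpbp10 (0.995), Chek1 (0.994) and Ppp3cb (0.994), and Arnt by Ankhd1 (0.988), Zyg11b (0.988) and Nup98 (0.987). The choice depends on the measure. Of each 3, the top 3 by Spearman's rho shared 2 for Ahr, 1 each for Cyp1a1, Cyp1b1 and Tiparp, and 0 for Arnt.

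Genes for the proteins that hold AHR in the cytoplasm or direct its breakdown were expressed in all 4 conditions, and none passed the test. Of the 7 genes of this list (Hsp90aa1, Hsp90ab1, Ptges3, Src, Cul4b, Ddb1 and Stub1) all were tested, and edgeR called 0 in any of the 6 comparisons, with 0 at an unadjusted p under 0.05 and 0 by DESeq2 or limma. Over all tested genes edgeR called 0.0149% (the interaction) to 8.34% (AA+2i against DMSO), so 0 of 7 lies near these shares. Hsp90ab1, which encodes an HSP90 chaperone, had 3700 ± 336 TPM in DMSO libraries and 3810 ± 722 in those of AA+2i (SD, n = 3), and Hsp90aa1 at 2400 ± 1050 and 1690 ± 472. The median log2 difference of the list with AA+2i against DMSO was -0.34, beside -0.018 over all tested genes. The differences of its genes ran from -0.80 (Cul4b) to 0.88 (Stub1). With the GC curves taken out they ran from -0.42 (Ddb1) to 0.18 (Hsp90ab1), so the median depends on that correction.

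Other genes described as AHR targets were called in both directions. Of 19 such genes, 13 were tested. With 2i against DMSO, 0 were called higher and 3 lower, where 1.59% of all tested genes were called higher and 2.83% lower, and the median log2 difference was -0.72 beside -0.022 over all genes. Cdkn1b, the gene at that median, was at -0.39 with the GC curves taken out. So corrected, edgeR called 5 of the 13 with 2i, where it called 1601 of all 13400 tested genes. The calls added were Nqo1, higher (0.98, edgeR, adjusted p = 0.0206), and Areg, lower (-1.07, adjusted p = 0.0251). With AA+2i against DMSO, 1 rose and 3 fell, where 3.93% of genes rose and 4.41% fell, and with AA 1 rose and 1 fell, beside 0.866% and 0.470%. The GC correction made it 6 with AA+2i, where 2620 of all tested genes were called. It added Ido1 (1.93, edgeR, adjusted p = 0.0206) and Vav3 (1.70, adjusted p = 0.0417), both higher, and Vav3 had at most 18 counts in a library. Cyp1a2, the closest relative of Cyp1a1, had at most 1 count in any library and was not tested.

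Cyp2s1, a P450 gene that AHR ligands induce in other cells, was at 206 ± 133 TPM in DMSO libraries and fell to 26.3 ± 3.12 under 2i and 23.3 ± 1.48 under AA+2i (SD, n = 3), log2 changes of -2.72 ± 0.44 (SE, edgeR quasi-likelihood test with Benjamini-Hochberg adjustment, adjusted p = 0.00574) and -2.88 ± 0.44 (adjusted p = 0.00289). Gsta1, a glutathione S-transferase gene, rose with AA from 54.4 ± 14.3 to 228 ± 50.8 TPM and fell with 2i to 14.4 ± 0.628, while with AA+2i it was at 53.5 ± 8.47 TPM. Its log2 changes were 2.08 ± 0.27 with AA (edgeR, adjusted p = 0.00480) and -1.75 ± 0.27 with 2i (adjusted p = 0.00447). Nqo1, which encodes a quinone reductase that NRF2 also controls, rose with AA+2i from 95.1 ± 31.8 to 242 ± 35.0 TPM (log2 change 1.51 ± 0.29, edgeR, adjusted p = 0.00858). Socs2, an inhibitor of cytokine signalling, fell with 2i from 91.8 ± 16.3 to 37.3 ± 4.86 TPM (log2 change -1.12 ± 0.23, edgeR, adjusted p = 0.0185). Of the EGF receptor ligands, Areg fell with AA+2i from 14.5 ± 2.19 to 3.59 ± 0.513 TPM (log2 change -1.80 ± 0.30, edgeR, adjusted p = 0.00473) and Ereg from 1.64 ± 0.469 to 0.203 ± 0.0945 TPM (-2.83 ± 0.37, adjusted p = 0.00113).

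Enzymes of tryptophan breakdown, which make AHR ligands such as kynurenine and kynurenic acid, were called more often with AA+2i than with either treatment alone, and a difference between these counts was not tested. Of 10 genes, 7 were tested. With AA+2i against DMSO, 3 rose and 1 fell, beside 3.93% and 4.41% of all tested genes, and with 2i 1 rose and 0 fell, beside 1.59% and 2.83%. With AA 0 were called by edgeR, beside 1.34% of all tested genes, with 4 at an unadjusted p under 0.05, 1 by DESeq2 and 0 by limma. The median log2 difference of the list with AA+2i was 1.65, beside -0.018 over all tested genes. Ido2, a paralogue of the first enzyme of the route, rose from 0.18 ± 0.10 to 2.53 ± 0.708 TPM with AA+2i (log2 change 4.06 ± 0.83, edgeR, adjusted p = 0.0122). Ccbl1 and Ccbl2, which make kynurenic acid from kynurenine, rose with AA+2i from 7.41 ± 4.82 to 24.8 ± 2.39 TPM (1.99 ± 0.48, edgeR, adjusted p = 0.0286) and from 13 ± 3.46 to 36.3 ± 7.14 TPM (1.65 ± 0.30, adjusted p = 0.00721). Aadat, another aminotransferase of the same step, fell from 2.13 ± 0.811 to 0.50 ± 0.0458 TPM (-1.88 ± 0.45, edgeR, adjusted p = 0.0268). Kynu, which diverts kynurenine from that step, rose with 2i from 0.707 ± 0.246 to 2.47 ± 0.550 TPM (1.99 ± 0.45, edgeR, adjusted p = 0.0310). Ido1, held by this list and by that of the targets, was at 0.707 ± 0.358 TPM with DMSO and 1.94 ± 0.323 with AA+2i, which edgeR did not call (log2 difference 1.70 ± 0.50, adjusted p = 0.0639) unless the GC curves were taken out (1.93, adjusted p = 0.0206).

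Of 16 other genes of the bHLH-PAS family and its coactivators, 11 were tested, and Epas1 and Arnt2 were the only ones that edgeR called in any comparison with the GC curves left in. It called 1 of the 11 with 2i and 1 with AA+2i against DMSO and 2 with AA+2i against AA, where 4.42%, 8.34% and 6.10% of all tested genes were called. Epas1, which encodes the hypoxia factor HIF-2 alpha, another partner of ARNT, went from 62.2 ± 12 TPM in DMSO libraries down to 13.7 ± 3.60 under 2i (log2 change -1.98 ± 0.31, edgeR, adjusted p = 0.00511) and 22.6 ± 4.16 under AA+2i (-1.24 ± 0.30, adjusted p = 0.0298). Arnt2, the paralogue of Arnt, fell with AA+2i against AA from 63.3 ± 2.79 to 32.8 ± 8.66 TPM (-0.79 ± 0.17, edgeR, adjusted p = 0.0172). Against DMSO (55.4 ± 8.12 TPM) its differences were -0.66 ± 0.17 with 2i (30.8 ± 3.76 TPM) and -0.57 ± 0.17 with AA+2i. EdgeR did not call these (adjusted p = 0.0515 and 0.0630) unless the GC curves were taken out (0.0108 and 0.00968). DESeq2 called 3 of the 11 with 2i and 4 with AA+2i against DMSO, where it called 1099 and 1879 of the 13400 tested genes. Of 10 genes of the other xenobiotic receptors and their targets, 4 were tested, and edgeR called 0 with any treatment against DMSO, although 1 with AA and 1 with 2i had an unadjusted p under 0.05. DESeq2 called 1 of them with AA and 0 with 2i or AA+2i, and limma 0. Por, the reductase that serves the P450 enzymes, was at 32.4 ± 32.5 TPM with DMSO and 61.1 ± 19.5 with AA+2i, and Abcb1b, which encodes a drug exporter, at 17.4 ± 7.08 and 11.8 ± 1.25 TPM. None of the genes of these lists stayed called without replicate B, in any of the 6 comparisons.

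**Figure D4:**
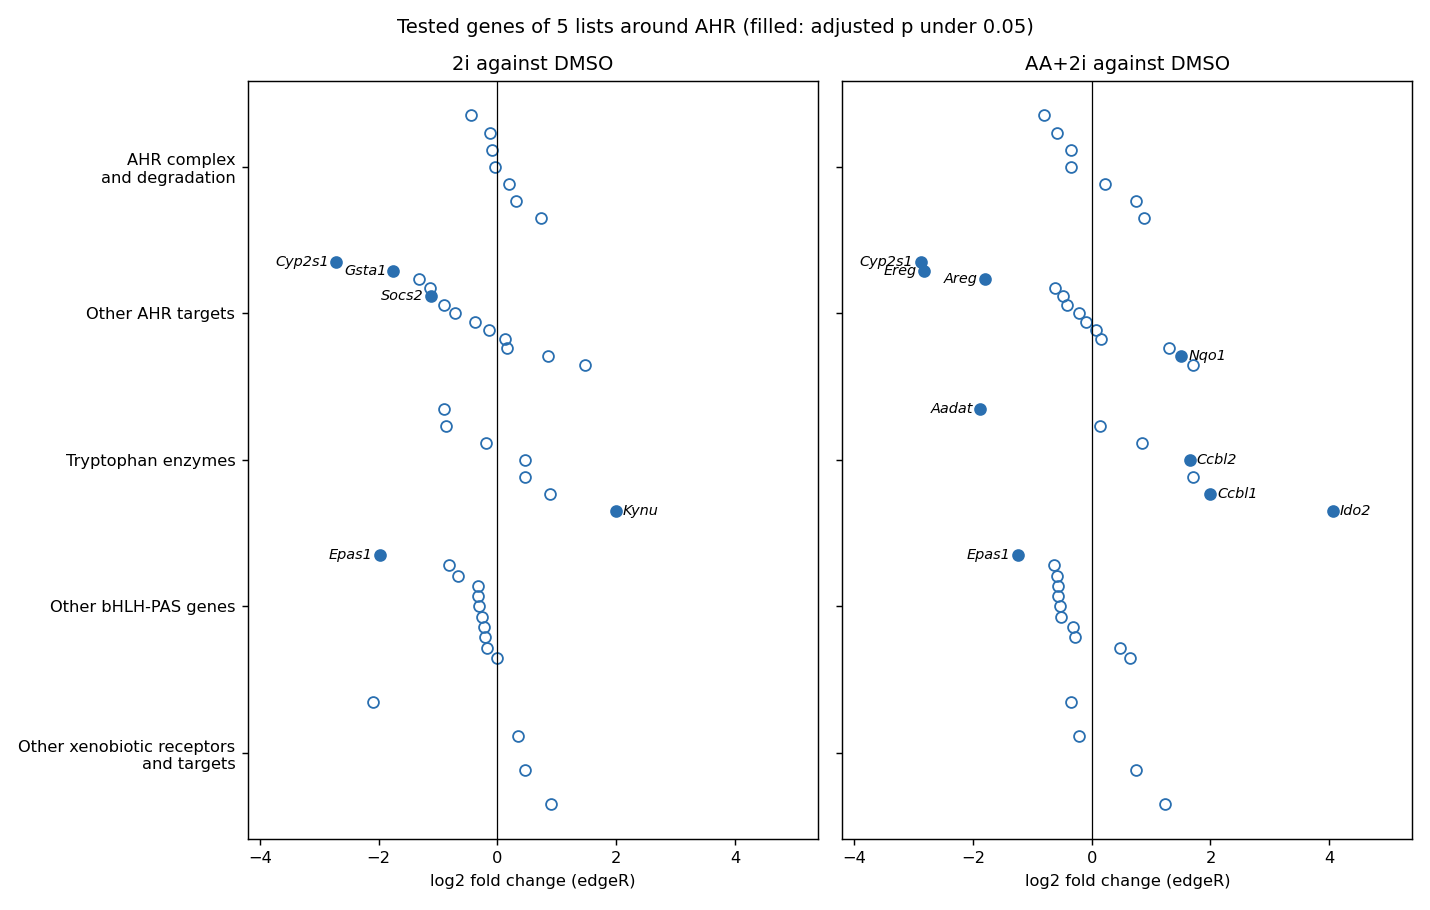
Log2 fold changes from edgeR of the tested genes of 5 lists around AHR, with 2i (left) and AA+2i (right) against DMSO. Each circle is a gene, and filled and named circles had an adjusted p under 0.05. The named targets with 2i (Cyp2s1, Gsta1 and Socs2) lie below 0, and the tryptophan enzymes Ido2, Ccbl1 and Ccbl2 lie above 0 with AA+2i.

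The labels of the treatments were checked in genes that the inhibitors are known to act on. Axin2, a direct Wnt target that GSK inhibition induces, rose with 2i (log2 change 5.83 ± 0.77, edgeR quasi-likelihood test, adjusted p = 0.00202), and the MAP kinase targets Dusp6 (-3.00 ± 0.21, adjusted p = 4.63e-05) and Spry4 (-1.22 ± 0.18, adjusted p = 0.00372) fell. The Wnt-responsive Lef1 was at 0.893 ± 0.624 TPM with DMSO and 3.4 ± 1.2 under 2i (SD, n = 3; log2 difference 2.12 ± 0.59) and the immediate early gene Egr1 at 70.7 ± 42.7 and 1.75 ± 1.34 (-5.05 ± 1.39), and edgeR called neither (adjusted p = 0.0719 and 0.0703), whereas DESeq2, limma and edgeR with the GC curves taken out each called all 5 genes. With AA+2i against DMSO, edgeR called Axin2 (6.10 ± 0.77, adjusted p = 0.00103), Dusp6 (-3.09 ± 0.21) and Spry4 (-1.08 ± 0.18), but neither Lef1 nor Egr1. Egr1 was at 0.35 to 54.76 TPM with AA+2i and 31.95 to 116.4 TPM with DMSO, so these groups overlapped (log2 difference -1.26 ± 1.17, edgeR, adjusted p = 0.470). Without replicate B, edgeR called 0 of the 5 genes with 2i and 1 with AA+2i against DMSO. Hepatocyte markers, whose cells are rich in CYP1 enzymes, summed to at most 0.15 TPM in any library. The feeder or fibroblast markers summed to 227 to 804 TPM in DMSO libraries, 272 to 390 for AA, 262 to 367 for 2i and 216 to 398 for AA+2i, 7 of the 12 genes were below 1 TPM in every library, and Lum was at 0 in all. Most of that sum was Fn1, the fibronectin gene, at 197 to 732 TPM in DMSO libraries. Of the pre-iPSC markers, Cdh1 and Epcam were present in every library. Fut4, a gene of an enzyme linked to the SSEA1 epitope, was below 1 TPM throughout. Its RNA does not measure the epitope, which the paper reports on the surface of its pre-iPSC lines. The part of other cells in the values of the AHR genes was not tested.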

How the data were processed

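Reads were trimmed and aligned by the authors with Bowtie to RefSeq genes of mm9 and quantified with RSEM 1.2.4. The deposited expected counts are estimates that need not be whole and are not normalized. The deposited TPM are scaled by the authors for transcript length and library. The FPKM that the authors deposited served only to recompute 1 malformed TPM cell of a gene not named here. The deposited transcript lengths served only as a check.

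After rounding, the expected counts entered edgeR 4.0.16 (R 4.3.3) with RLE factors and a quasi-likelihood fit of 1 mean per condition (8 residual degrees of freedom). The fit covered 13400 of 20325 genes, those that reached 10 counts in 3 or more libraries, with Benjamini-Hochberg adjustment over all of them and a threshold of 0.05. Standard errors were derived from the F statistic and restate the test. The script was checked on simulated counts. Ratios of low counts carry exact 95% intervals that cover counting error only. Depth was 16173322 to 54392719 summed counts, with DMSO B and AA B deepest. Although the labels name 1 line, nothing in the sources says whether the biological replicates are separate cultures of it. The p-values therefore measure the spread between these libraries.

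Alternatives were TMM factors, DESeq2 1.42.0, limma 3.58.1 on log2(TPM + 1), dropping the count filter, 10 counts in every library, only the 2 groups compared, the replicate letter as a block, a loess GC curve per library (span 0.4), curve and block together, and leaving out each letter and each library. The members and all lists were chosen with earlier results of these data known. All 7 members are named. From each list the genes called with 2i or AA+2i against DMSO or with AA+2i against AA are named, at most 6 by size of change, or else the 2 with the highest mean TPM. For likeness the 3 genes with the highest r are named. Lists of markers of pre-iPSCs, feeders or fibroblasts, primitive endoderm, trophoblast and hepatocytes were also measured. One gene of a list is not reported here. Promoter windows come from RefSeq (GRCm38.p6), and 5 of the 7 members matched.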

Additional observations from a re-analysis of the deposited data

Results flagged for a closer look

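The effect of AA on Ahr had opposite signs without and with 2i. All 3 AA libraries were below all 3 DMSO libraries (means 0.853 and 1.62 TPM), and all 3 AA+2i libraries were above all 3 of 2i (means 4.42 and 3.03 TPM), which is why the gene is listed here. The interaction was 1.49 ± 0.40 (SE) on the log2 scale in edgeR's quasi-likelihood fit, with a Benjamini-Hochberg adjusted p = 1.00, so the difference did not pass the test over all genes. DESeq2 gave an adjusted p = 0.154 and limma 0.382, and the fit with the GC curve and the replicate block 0.0229, so the adjusted p ran from 0.0229 to 1 over the alternatives. The interaction was among the values on which the gene was selected. For the other members the groups overlapped in at least one of the 2 comparisons.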

How the results depend on the processing

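Of 846 alternative fold changes of the members, 698 stayed within a set distance of the reported value, 148 moved beyond it and 0 called ones changed sign. That distance was the SD of the 3 differences between libraries of the same letter on log2(TPM + 1), not the SE of the fit. For Ahr with AA against DMSO that SD was 0.00, so -0.92 instead of -0.93 counted as moved. The split therefore does not measure stability against the SE. The number of members called moved more. With AA against DMSO it was 0 and became 1 with the replicate block and 1 with GC curve and block. With 2i against DMSO it was 2 and became 0 when 10 counts were required in every library, which leaves Cyp1a1 and Cyp1b1 out by construction, 1 with only the 2 groups compared, 4 with GC curve and block (Ahr and Tiparp added), 3 with DESeq2, the replicate block or the GC curve (Ahr added), and 0 to 2 when a letter or library was left out. With AA+2i against DMSO it was 3 and became 1 with 10 counts in every library, 4 with the block, the GC curve or both (Tiparp added), and 0 to 3 on leaving out. With AA+2i against AA it was 3 and became 1 with 10 counts in every library, 4 with GC curve and block (Tiparp added), and 1 to 3 on leaving out. With AA+2i against 2i and for the interaction it was 0 and became 1 with GC curve and block, Ahr each time. The cause of these shifts was not tested, except where the filter sets them. Leaving out a letter leaves 2 libraries per condition.

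Over all genes the counts called for AA, 2i and AA+2i against DMSO were 179, 592 and 1117 as reported, 454, 1099 and 1879 by DESeq2, and 546, 1601 and 2620 with the GC curve. The letters are not stated to mark pairs. Libraries of the same letter deviated together in 15 of 18 pairs (r above 0.1, mean 0.434, from -0.634 to 0.927). The mean over the 36 other pairs was -0.211. Deviations from the mean of 3 libraries cancel within a condition, so a positive mean within letters brings a negative one between them. The value of the other pairs is therefore no separate support. Of 12 libraries, 11 were nearest to one of their own letter, a hint from the data and not from the design. With the letter as a replicate block 594, 1782 and 4229 genes were called. Counts of Cyp1a1 and Ahrr limit what can be said of them in the libraries without 2i, and 3 libraries per condition limit the rest.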

Other observations

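Markers of other cell identities were measured beside the AHR genes. Of 6 pre-iPSC markers, 5 were tested. Cdh1, which encodes E-cadherin, was at 43.2 ± 9.89 TPM in DMSO libraries and rose to 92.4 ± 8.92 under AA and 123 ± 21.5 under AA+2i (SD, n = 3), log2 changes of 1.13 ± 0.20 (SE, edgeR quasi-likelihood test, adjusted p = 0.0180) and 1.71 ± 0.20 (adjusted p = 0.000683). Epcam rose with AA+2i from 87.7 ± 18.7 to 163 ± 9.45 TPM (1.10 ± 0.26, edgeR, adjusted p = 0.0240). Lin28a, an RNA-binding protein gene of the same list, fell with AA+2i against AA from 5.02 ± 2.89 to 0.633 ± 0.179 TPM (-2.78 ± 0.62, edgeR, adjusted p = 0.0220), and against DMSO, at 1.49 ± 0.935 TPM, it was not called. Pou5f1 and Sall4 were not called by edgeR with AA+2i against DMSO (log2 differences -0.44 ± 0.48 and 0.34 ± 0.22). With the GC curves taken out, Pou5f1 was called lower (-0.95, edgeR, adjusted p = 0.0161) and Sall4 was not called. The paper's pre-iPSC lines carried introduced Oct4, and the Pou5f1 counts were not split between it and the endogenous gene. The paper reports that endogenous Oct4 rose in AA conditions and that the introduced factors were repressed, so the Pou5f1 values do not give the direction of the endogenous gene. Of 5 trophoblast markers, 3 were tested, and Eomes, a transcription factor gene of that lineage, fell with 2i from 2.37 ± 0.269 to 1.03 ± 0.0551 TPM (-1.03 ± 0.23, edgeR, adjusted p = 0.0293). Krt7 and Hand1 of that list had higher means with AA+2i than with DMSO, 1.57 ± 1.60 against 0.187 ± 0.0379 TPM and 4.02 ± 3.34 against 0.813 ± 0.682 TPM, which edgeR did not call (log2 differences 3.40 ± 1.13 and 2.61 ± 1.01, adjusted p = 0.0947 and 0.142). With the GC curves taken out, edgeR called Krt7 (3.24, adjusted p = 0.0482) but not Hand1 (1.90, adjusted p = 0.0942). All 6 primitive endoderm markers were below 1 TPM in every library. Of the feeder or fibroblast markers, 9 of 12 were tested, and with AA+2i against DMSO Col3a1 rose from 0.133 ± 0.0814 to 0.560 ± 0.0854 TPM (2.25 ± 0.51, edgeR, adjusted p = 0.0205) and Fbln2 fell from 28.9 ± 28.3 to 3.55 ± 0.486 TPM (-2.71 ± 0.73, adjusted p = 0.0453). Pdgfra fell with AA+2i against AA from 0.480 ± 0.175 to 0.0833 ± 0.0473 TPM (-2.29 ± 0.53, edgeR, adjusted p = 0.0283). Of the calls made with the GC curves left in, none was made without replicate B.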
